A study of Mus musculus with 222 samples.

Results

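The genes described here are 8 genes of mast cells, namely Tpsab1, Tpsb2, Cpa3, Cma1, Mcpt4, Ms4a2, Fcer1a and Hdc, measured in mammary tumors and normal mammary glands of mice that carry ErbB2 under the MMTV promoter. They were chosen by name, with earlier results of these data known. Each was read from its probe set with 1 gene symbol and the highest mean over all 222 arrays. All 8 were measured, each by 1 such probe set, among 19938 genes that had one and 35556 probe sets in all. The arrays were of the type Affymetrix mouse gene 1.0 ST, and every value is an RMA log2 signal, so that a difference of 1 is a 2-fold change. The 214 tumor arrays came from FVB mice (26), from F1 mice of C57BL/6 and FVB/N (28) and from F1BX mice, the offspring of F1 mice and FVB/N mice (160), and all of these tumors arose in MMTV-ErbB2 animals. The 8 normal glands came from 3 FVB and 2 F1 animals with the transgene, whose promoter is active in mammary epithelium, and from 3 F1 wild type animals. Tumor-bearing animals were followed for life, and lifespan differed between the backgrounds, so that age and background of the tumors cannot be told apart. The ages of the gland donors and the way in which glands were taken were not found in the labels or the methods.

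Mast cells are long-lived tissue cells of the blood lineage that store ready-made mediators in granules and release them when IgE on their surface is bridged by antigen. Connective tissue mast cells pack their granules with tryptases (Tpsab1 and Tpsb2), chymases (Cma1 and Mcpt4) and carboxypeptidase A3 (Cpa3), bound to heparin, while Hdc makes the histamine that is stored with them. Fcer1a and Ms4a2 encode the alpha and beta chains of the high-affinity IgE receptor. In the mammary gland such cells lie in the stroma around ducts and vessels and around many tumors. In bulk tissue, fewer mast cells and less of these RNAs in each mast cell cannot be told apart.

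The 250 bases before the transcription start were available for 6 of the genes (RefSeq, GRCm38.p6), and those of Cpa3, Mcpt4 and Ms4a2 are shown, because the first pair varied most closely together among tumors (r = 0.92 on the wide arrays) and Ms4a2 followed them less (r = 0.39 with Cpa3 and 0.37 with Mcpt4). Capitals mark the letters AGATAA or AGATAG or TGATAA or TGATAG on either strand, the sequence bound by GATA factors, which are required for mast cells to form.
Cpa3, chr3:20242182-20242431, minus strand: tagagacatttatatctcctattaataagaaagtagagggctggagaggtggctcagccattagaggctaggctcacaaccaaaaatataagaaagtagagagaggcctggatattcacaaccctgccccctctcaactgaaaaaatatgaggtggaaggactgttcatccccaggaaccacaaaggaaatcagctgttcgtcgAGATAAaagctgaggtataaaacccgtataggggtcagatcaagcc
Mcpt4, chr14:56062311-56062560, minus strand: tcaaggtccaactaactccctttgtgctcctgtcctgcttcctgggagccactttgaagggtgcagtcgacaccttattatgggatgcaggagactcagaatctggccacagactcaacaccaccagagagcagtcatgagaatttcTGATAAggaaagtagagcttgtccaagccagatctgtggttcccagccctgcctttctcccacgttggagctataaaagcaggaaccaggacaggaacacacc
Ms4a2, chr19:11623720-11623969, minus strand: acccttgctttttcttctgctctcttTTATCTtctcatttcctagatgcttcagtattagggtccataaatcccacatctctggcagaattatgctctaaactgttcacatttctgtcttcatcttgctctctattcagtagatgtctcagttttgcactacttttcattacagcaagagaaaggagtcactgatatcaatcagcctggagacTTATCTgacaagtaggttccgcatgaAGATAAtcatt
All 6 of these promoters (Cpa3, Cma1, Mcpt4, Ms4a2, Fcer1a and Hdc) held the GATA letters at least once, as did 26.5% of the 32851 promoters of the same length. Counted from the start, the match began at base -46 in Cpa3, -79 in Cma1, -92 in Fcer1a, -103 in Mcpt4 and -221 in Hdc. Ms4a2 held 3 matches, and 6.40% of all promoters held at least 2. The letters CACATG or CATGTG, an E-box read by Mitf, were found in 1 of the 6 (Fcer1a) and in 12.3% of all promoters. Such matches describe the sequence and are not measurements of binding.

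The arrays formed a narrow and a wide set by the interquartile range of their values (1.86 to 2.62 in 34 arrays, 3.04 to 3.35 in 188), and these were kept apart. The narrow arrays held all 8 glands with 20 F1BX and 6 F1 tumors, and the wide arrays held the other 140 F1BX, 22 F1 and 26 FVB tumors. Among F1BX tumors, 7 of the 8 genes were higher on narrow arrays (all but Tpsab1), from 0.27 for Ms4a2 to 0.76 for Cpa3, where 37.9% of all probe sets were higher. A pair of tumors was measured on both sets, and their Cpa3 was 5.07 and 5.05 on the wide arrays and 5.78 and 5.88 on the narrow arrays. Levels of tumors on wide arrays are therefore not set against glands. Erbb2 was 8.26 to 8.35 in wild type glands and 9.05 to 10.48 in MMTV-ErbB2 glands, without overlap. Krt8, a keratin of luminal epithelium, was 11.58 to 13.27 in the 8 glands. Adipoq, a hormone of the fat cells that fill a mammary fat pad, was 5.47 to 6.08 there. That lay within the lower part of the range of the narrow-array tumors (5.37 to 9.47). Of 6 adipocyte genes, 2 others (Fabp4 and Pparg) were called lower in these tumors than in the glands, and none was called higher.

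Granule genes were lower in tumors than in normal glands, and the glands themselves divided by genotype. Of the 8 genes, 6 were called lower in the 26 tumors than in the 8 glands of the narrow arrays, at an adjusted p of at most 0.005 from limma and a fold of at least 2, where 4.76% of all probe sets were called lower. The median difference of the 8 genes was -1.68 and that of all probe sets was -0.09. The chymase Mcpt4 had the largest difference (-3.14), followed by Tpsab1 (-2.44), Cpa3 (-2.41), Hdc (-2.12), Cma1 (-1.25) and Tpsb2 (-1.20). Tpsab1, Cpa3 and Mcpt4 are also in the study's own list of transcripts that differ between tumors and normal glands. That list came from the same data, so their calls here are no independent result. The IgE receptor genes did not pass, Fcer1a for the size of its difference and Ms4a2 for both. Against the 3 wild type glands alone, 2 of the 8 were called lower (Mcpt4 and Hdc), where 4.49% of all probe sets were.

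**Figure D1:**
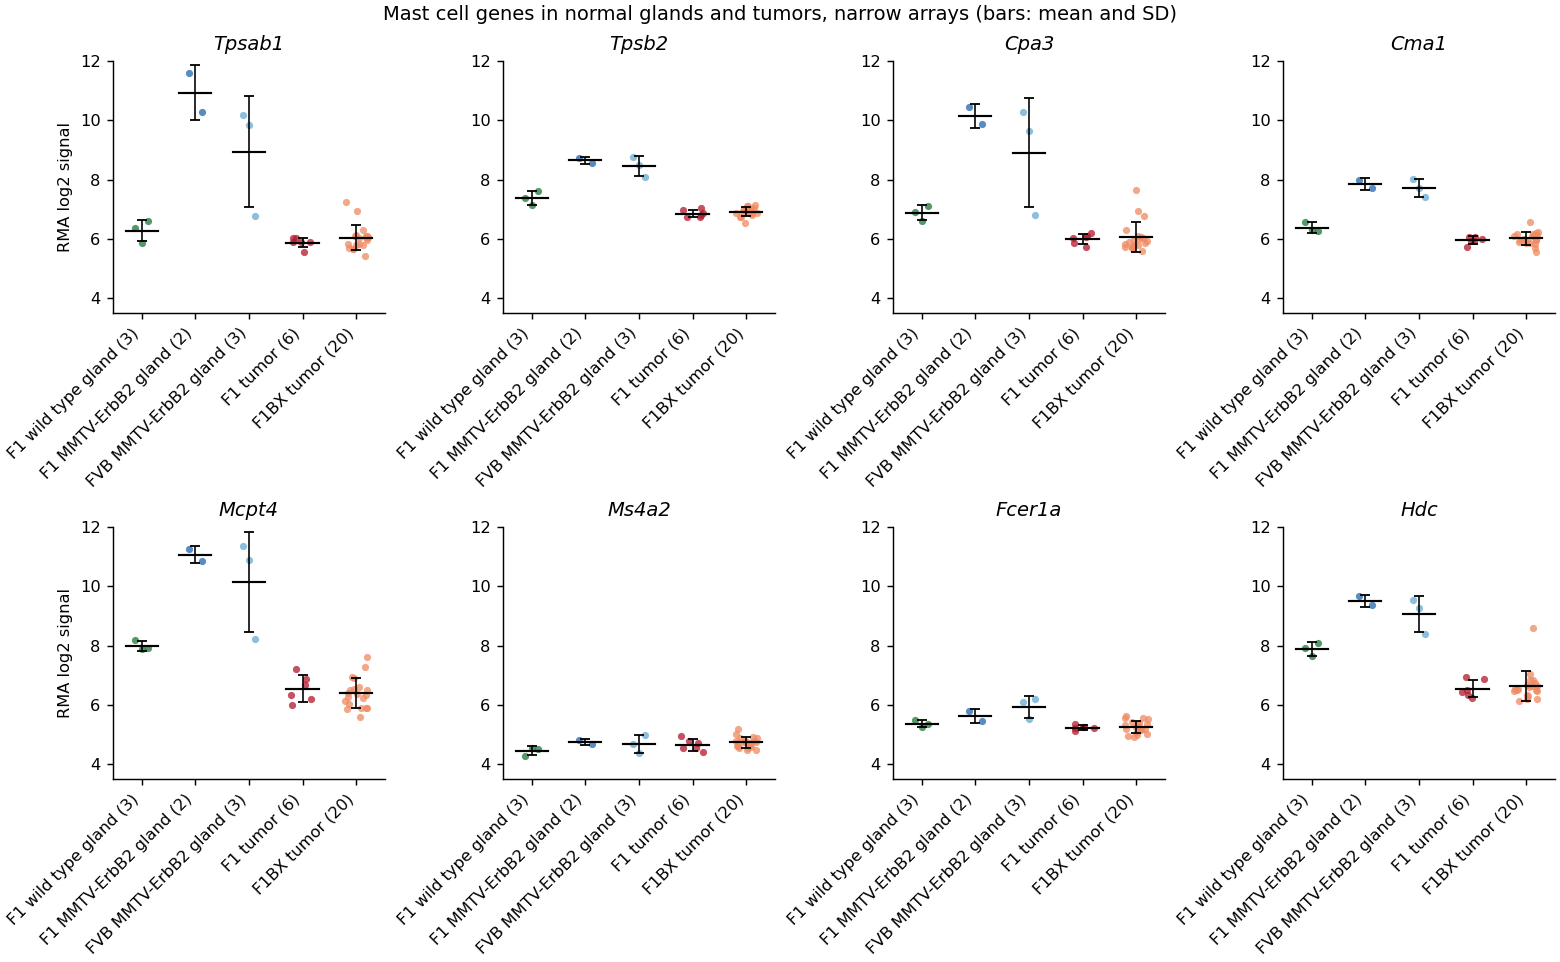
RMA log2 signal (y axis) of the 8 mast cell genes in each gland and tumor of the narrow arrays, by group with the number of arrays in brackets (x axis). Each point is 1 array, and the lines give the mean and its SD. In 4 of the 5 MMTV-ErbB2 glands Tpsab1, Cpa3 and Mcpt4 lie far above the wild type glands and the tumors, while Ms4a2 stays between 4.29 and 5.19 in all groups.

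The tryptase gene Tpsab1 was 11.59 and 10.29 in the F1 MMTV-ErbB2 glands, 10.19, 9.86 and 6.79 in the FVB MMTV-ErbB2 glands, and 6.37, 5.87 and 6.59 in the F1 wild type glands. In the tumors of the same array set it ran from 5.43 to 7.26 with a median of 5.99. All 5 transgenic glands were above all 3 wild type glands, whereas 15 of 26 tumors lay within the range of the wild type glands. The difference between the F1 transgenic and wild type glands was 4.66 (95% interval 3.53 to 5.78, adjusted p = 6.58e-06 from limma). Against the wild type glands the tumors differed by -0.28 (95% interval -1.03 to 0.47, adjusted p = 0.613 from limma).

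Tpsb2, the second tryptase gene, was 8.74 and 8.56 in the F1 MMTV-ErbB2 glands, 8.77, 8.50 and 8.10 in the FVB MMTV-ErbB2 glands, and 7.38, 7.15 and 7.61 in the wild type glands. Tumors ran from 6.52 to 7.15 with a median of 6.91. Its 3 groups stood in order with little overlap, since the transgenic glands were above all wild type glands and 25 of 26 tumors were below them. The F1 glands differed by 1.27 (95% interval 0.93 to 1.61, adjusted p = 2.13e-05 from limma), and the tumors differed from wild type glands by -0.48, an adjusted p of 0.00102 from limma that passed with a fold that did not.

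Cpa3, the carboxypeptidase, was 10.44 and 9.87 in the F1 MMTV-ErbB2 glands, 10.27, 9.63 and 6.81 in the FVB MMTV-ErbB2 glands, and 6.91, 6.61 and 7.12 in the wild type glands. Tumors ran from 5.60 to 7.66 with a median of 5.94. The groups of glands overlapped through 1 array, FVB MMTV-ErbB2 gland 3, while 23 of 26 tumors were below all wild type glands. The F1 glands differed by 3.27 (95% interval 2.13 to 4.42, adjusted p = 0.000972 from limma), a call lost without F1 transgenic gland 1 (adjusted p = 0.110). The tumors differed from the wild type glands by -0.83 (95% interval -1.59 to -0.06, adjusted p = 0.0927 from limma).

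Among the chymases, Mcpt4 was 11.27 and 10.86 in the F1 MMTV-ErbB2 glands, 11.35, 10.90 and 8.22 in the FVB MMTV-ErbB2 glands, and 8.19, 7.87 and 7.91 in the wild type glands. Tumors ran from 5.59 to 7.62 with a median of 6.36. Here all 26 tumors were below every gland, and FVB MMTV-ErbB2 gland 3 exceeded the highest wild type gland only slightly. The F1 glands differed by 3.07 (95% interval 1.94 to 4.20, adjusted p = 0.00183 from limma), and the tumors differed from wild type glands by -1.56 (95% interval -2.32 to -0.81, adjusted p = 0.00128 from limma). Without F1 transgenic gland 1 the call of Mcpt4 between F1 glands was lost (adjusted p = 0.137 from limma). Cma1, the other chymase, was 7.99 and 7.71 in the F1 MMTV-ErbB2 glands, 8.01, 7.73 and 7.41 in the FVB MMTV-ErbB2 glands, and 6.58, 6.29 and 6.28 in the wild type glands, against 5.56 to 6.57 in the tumors (median 5.98). The glands did not overlap by genotype, and 25 of 26 tumors were below the wild type glands. Its difference between F1 glands was 1.47 (95% interval 1.07 to 1.87, adjusted p = 2.58e-05 from limma).

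Hdc, the histamine-forming enzyme, was 9.66 and 9.36 in the F1 MMTV-ErbB2 glands, 9.56, 9.26 and 8.38 in the FVB MMTV-ErbB2 glands, and 7.91, 7.65 and 8.10 in the wild type glands. Tumors ran from 6.13 to 8.61 with a median of 6.53. The glands did not overlap by genotype, and 25 of 26 tumors were below all glands, the exception being 159T1 at 8.61. The F1 glands differed by 1.62 (95% interval 0.78 to 2.46, adjusted p = 0.0481 from limma), and the tumors differed from wild type glands by -1.27 (95% interval -1.83 to -0.71, adjusted p = 0.000514 from limma). The call between F1 glands was lost without any single one of the 5 F1 glands (adjusted p = 0.0826 to 0.712 from limma). Basophils and some other cells also make histamine, so Hdc is less particular to mast cells than the proteases.

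The IgE receptor genes behaved differently. Ms4a2 was 4.81 and 4.68 in the F1 MMTV-ErbB2 glands, 4.68, 4.39 and 5.0 in the FVB MMTV-ErbB2 glands, and 4.29, 4.56 and 4.52 in the wild type glands, with tumors from 4.40 to 5.19. The F1 transgenic glands lay just above the wild type glands, FVB gland 2 lay among them, and the tumors overlapped both, and the difference between the F1 glands was 0.29 (95% interval -0.08 to 0.67, adjusted p = 0.692 from limma). Fcer1a was 5.79 and 5.47 in the F1 MMTV-ErbB2 glands, 6.10, 5.51 and 6.21 in the FVB MMTV-ErbB2 glands, and 5.48, 5.24 and 5.37 in the wild type glands, with tumors from 4.93 to 5.63. The lower F1 transgenic gland was level with the highest wild type gland, and the F1 glands differed by 0.27 (95% interval -0.13 to 0.67, adjusted p = 0.775 from limma). The deposited values run from 2.25 to 14.8 and come with no detection calls, so neither receptor gene is shown to be above background in these arrays.

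**Figure D2:**
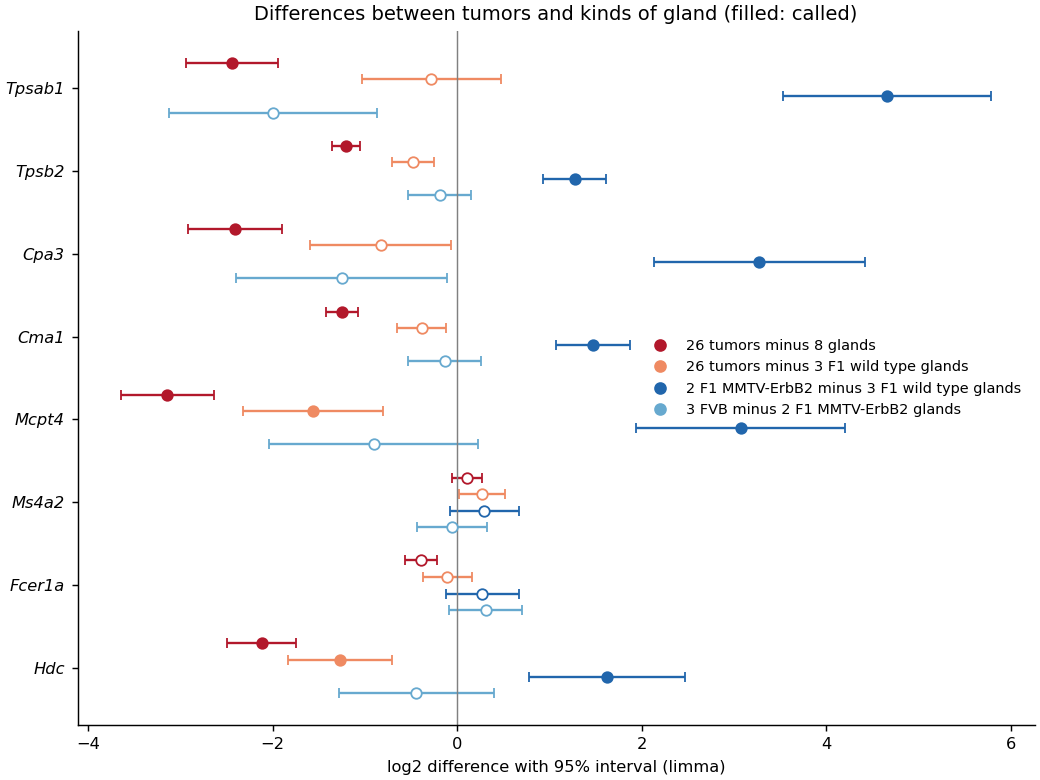
Log2 difference from limma with its 95% interval (x axis) for each mast cell gene (y axis) in 4 comparisons of the narrow arrays, with filled points where the gene was called. The 6 granule and histamine genes lie to the right for F1 MMTV-ErbB2 against wild type glands and to the left for tumors against all glands, and the comparisons share gland arrays.

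Between F1 MMTV-ErbB2 and F1 wild type glands, 6 of the 8 genes were thus called higher (adjusted p under 0.05 from limma), where 0.667% of all probe sets were. With all 5 transgenic glands against the 3 wild type glands, the same 6 were called higher (1.52% of all probe sets), and with the 3 FVB glands alone 5 were (1.57%), all but Hdc among them. In these fits the spread was pooled with that of 26 tumors. Taken from the glands alone, the standard error of the difference between F1 glands was larger for 7 of the 8 genes, such as Tpsab1 (0.92 against 0.55), and smaller for Hdc (0.36 against 0.41). With the spread taken from the 8 glands alone, none of the 8 genes was called between F1 transgenic and wild type glands (lowest adjusted p = 0.432 from limma, no probe set called in all). An unadjusted p under 0.05 from limma was reached there by 6 of the 8 genes and by 1726 of all 35556 probe sets. In the same glands, 5 transgenic against 3 wild type, 1 was called, Cma1 (difference 1.39, adjusted p = 0.0495 from limma), where 42 probe sets were called in all. An exact permutation test over these 8 glands, two-sided and separately for each of the 8 genes, gave p = 0.0357 for Tpsab1, Tpsb2, Cma1, Mcpt4 and Hdc. That is the smallest p that 5 against 3 glands allow. It gave an exact p of 0.107 for Cpa3, 0.0714 for Fcer1a and 0.179 for Ms4a2, and 2 F1 against 3 wild type glands cannot go below an exact p of 0.2. The transgenic glands of this test are of both backgrounds and the wild type glands of F1 only. Its p-values were not adjusted over the 8 genes, and the share of all probe sets that separate these glands was not computed.

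FVB MMTV-ErbB2 gland 3 stood apart from the other 4 transgenic glands, with values near the wild type glands for Tpsab1, Cpa3 and Mcpt4. None of the 8 genes was called between FVB and F1 MMTV-ErbB2 glands by limma, where 0.0112% of all probe sets were called in either direction. At an unadjusted p under 0.05 from limma Tpsab1 and Cpa3 were lower in FVB glands, where 5989 of 35556 probe sets differed in either direction. Without FVB gland 3 the difference moved from -0.91 to 0.06 for Mcpt4, from -1.25 to -0.21 for Cpa3 and from -1.99 to -0.91 for Tpsab1. Without FVB gland 1, Tpsab1 and Cpa3 were called lower in FVB glands, and without FVB gland 2 Tpsab1 was. When each gland was left out, the share of all probe sets called in this comparison ranged from 0.00281% to 17.5%. FVB gland 3 had the narrowest interquartile range of all arrays (1.86, against 2.20 to 2.36 in the other 7 glands). It was low in Il6 (6.71, against 11.09 to 12.73 in the other 7 glands), Kit (7.68 against 9.78 to 10.59) and Il33 (6.78 against 7.36 to 11.73). Among the transgenic glands it had the lowest T cell list mean (7.86 against 8.87 to 9.10) and B cell list mean (7.55 against 8.83 to 9.63). Its means of the basophil (7.43), eosinophil (7.29) and neutrophil (8.01) lists were the highest of the 8 glands, and whether these differences bear on its mast cell genes was not tested.

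Other genes differed by genotype between F1 glands in the fit whose spread was pooled with the tumors, where 0.667% of all probe sets were called higher. With the spread taken from the glands alone, no probe set was called between F1 transgenic and F1 wild type glands. Of 18 measured genes in a list of further mast cell genes, 2 were called higher in F1 transgenic than in F1 wild type glands, with a list median of 0.22 against -0.02 for all probe sets. They were Tph1, the enzyme with which rodent mast cells make serotonin (8.20 and 9.14 against 6.78 to 7.30), and Mrgprb1, a receptor gene of mast cells (6.43 and 6.20 against 4.80 to 5.24). Neither overlapped between these groups, and the share of all probe sets without overlap was not computed. In the FVB transgenic glands Mrgprb1 was 6.22, 5.98 and 5.95, and it was called higher than in wild type glands. Tph1 was 8.01, 8.18 and 6.92 there, the last within the wild type range, and it was not called. Kit, the receptor for stem cell factor, was 10.19 and 10.59 against 10.01 to 10.48, and it is also made by luminal epithelium. Of 8 growth and attraction signals, Il3, a growth factor for mouse mast cells, was called higher, at 5.84 and 5.98 against 4.72 to 5.0 (adjusted p = 0.000246 from limma). Il33, an alarm signal read by mast cells, was 11.73 and 10.68 against 7.36 to 7.99 without being called (adjusted p = 0.149 from limma), and Kitl, which encodes stem cell factor, was 10.04 and 9.99 against 10.47 to 10.85 (adjusted p = 0.833 from limma). No gene of the basophil list (4 measured) or the eosinophil list (4 measured) was called.

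Markers of other cells moved as well. Of 5 T cell genes, 3 were called higher in F1 transgenic than in F1 wild type glands (Cd3d, Cd2 and Cd5), where 0.667% of all probe sets were. These calls too come from the fit pooled with the tumors. The mean of the list was 8.87 and 8.88 in F1 transgenic glands, 7.86 to 9.10 in FVB transgenic glands, 7.42 to 8.45 in wild type glands and 6.35 to 6.71 in the narrow-array tumors. The mean of 4 B cell genes was 7.55 to 9.63 in the 5 transgenic glands and 7.62 to 8.29 in wild type glands. The mean of 5 luminal epithelial genes was 10.58 to 11.71 in transgenic glands and 12.15 to 12.62 in wild type glands, without overlap. The mean of the 8 mast cell genes was 7.11 to 8.79 in transgenic glands and 6.41 to 6.69 in wild type glands, also without overlap. The part of tissue composition in the mast cell differences was not tested. Collagen did not separate the glands, with a mean of 8 collagen genes of 9.64 to 10.70 in transgenic and 10.19 to 10.40 in wild type glands, and none of 11 collagen and fibroblast genes was called.

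Between tumors and all glands, the further mast cell genes gave 1 higher (Kit, 2.34) and 2 lower (Tph1, -1.98, and Srgn, the proteoglycan core of granules, -1.91) of 18. Of all probe sets, 7.35% were called higher and 4.76% lower in this comparison. All 5 T cell and all 4 B cell genes were called lower in tumors, as were 6 of 11 collagen and fibroblast genes and 4 of 5 endothelial genes. Of 6 adipocyte genes 2 were (Fabp4 and Pparg), and of the 4 basophil and 4 eosinophil genes none was. Of the growth and attraction signals, 4 of 8 were called lower (Ccl2, -4.69; Il33, -2.07; Cxcl12, -1.60; Il3, -1.01). The 6 lower calls among the mast cell genes remained 6 with the mean of collagen as a covariate.

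No difference between the genetic backgrounds of tumors was called for these genes. On the wide arrays none of the 8 was called between F1 and FVB tumors (12.3% of all probe sets were called in either direction), between F1BX and FVB tumors (6.74%) or between F1BX and F1 tumors (3.65%), and on the narrow arrays none was called between F1BX and F1 tumors, where limma called 0% of probe sets and 1170 probe sets had an unadjusted p under 0.05. At an unadjusted p under 0.05 in limma, 1 of the 8 genes differed in 1 of these comparisons, Ms4a2 between F1BX and F1 tumors of the wide arrays (0.10). In that comparison 7316 of 35556 probe sets had such a p.

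The tumors 051T1 (labelled F1) and 063T1 (labelled FVB) carry names of the form used for F1BX tumors, and without them none of the 8 genes was called either. The levels in the 3 backgrounds overlapped for every gene. Cpa3 ran from 4.58 to 8.39 in FVB tumors (median 5.35), from 4.75 to 5.99 in F1 tumors (median 5.30) and from 4.43 to 8.07 in F1BX tumors (median 5.14). The largest difference in size was that of Cpa3 between F1 and FVB tumors, -0.24 (95% interval -0.62 to 0.14, adjusted p = 0.425 from limma). Mcpt4 ran from 5.21 to 8.30 in FVB (median 5.77), from 5.01 to 6.72 in F1 (median 5.75) and from 5.16 to 8.38 in F1BX tumors (median 5.73). Its difference between F1 and FVB tumors was -0.21 (95% interval -0.54 to 0.13), and between F1BX and F1 tumors 0.14 (95% interval -0.13 to 0.41). The medians of the 3 backgrounds lay within 0.13 of each other for Tpsab1, at 5.92, 5.86 and 5.81 in FVB, F1 and F1BX tumors, and those of Hdc were 6.34, 6.32 and 6.32.

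**Figure D3:**
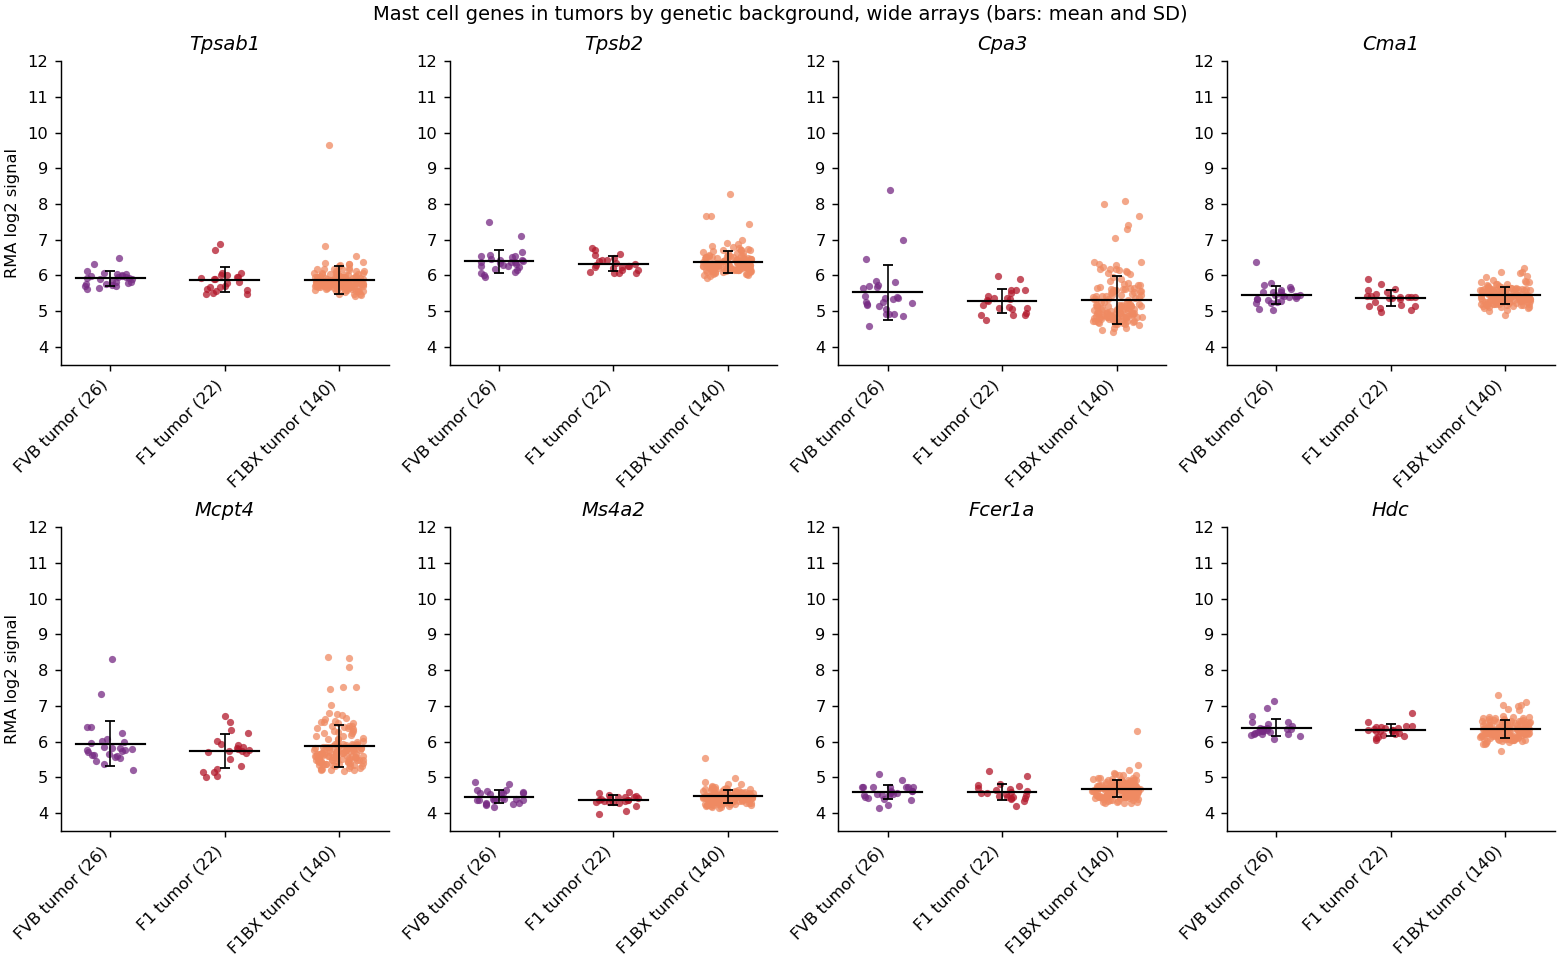
RMA log2 signal (y axis) of the 8 mast cell genes in the 188 tumors of the wide arrays, by genetic background with the number of arrays in brackets (x axis). Each point is 1 array, and the lines give the mean and its SD. The backgrounds overlap for every gene, and a few tumors reach above 7 for Cpa3 and Mcpt4.

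The variation lay among single tumors. The SD over the 188 wide-array tumors was largest for Cpa3 (0.66) and Mcpt4 (0.58) and smallest for Ms4a2 (0.18). The tumor with the highest mean of the 8 genes was 168T1 (F1BX), with Tpsab1 at 9.66, Tpsb2 at 8.27, Cpa3 at 7.99 and Mcpt4 at 8.09, and it also had the highest Ms4a2 (5.53) and Fcer1a (6.29) of the wide arrays. Its Erbb2 was 9.32, the lowest of the wide-array tumors, whose median was 12.43. P21T4 (FVB) followed, with Cpa3 at 8.39 and Mcpt4 at 8.30, then 292T3 with 7.67 and 8.34, 187T2 with 8.07 and 8.38, and 050T2 with 7.41 and 7.53, all F1BX.

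P21T4, 292T3 and 187T2 had other tumors of the same mouse on the wide arrays, and these were lower. For 168T1 and 050T2 no other tumor of the mouse was measured there. The mean of the 8 genes was 6.71 in P21T4 and 5.36 in P21T1 of the same animal, 6.67 in 292T3 and 5.58 and 5.35 in its other tumors, and 6.67 in 187T2 and 5.91 and 5.25 in its other tumors. The tumor with 5.91, 187T1, had a Cpa3 of 6.16, above the wide-array tumor median of 5.16. Over all wide-array tumors the correlation within a mouse was -0.06 for Cpa3, -0.07 for Mcpt4 and 0.33 for Tpsab1, against a median of 0.09 over 3556 probe sets sampled across the array. Fat and muscle markers were also high in most of the tumors with the highest mast cell means. The skeletal muscle list mean was 12.29 in 292T3, 11.22 in 050T2, 10.56 in P21T4, 10.34 in 187T2 and 8.16 in 168T1, against a median of 6.68 over the wide-array tumors. The adipocyte list mean was 10.07, 9.38, 8.48, 7.99 and 6.66 in the same order, against a median of 6.55. The part of these tissues in the high mast cell values was not tested. The tumor 187T2 also had the highest collagen mean of the wide arrays (11.83). On the narrow arrays 025T1 was highest, with Cpa3 at 7.66, Mcpt4 at 7.62 and skeletal muscle and adipocyte means of 10.19 and 8.47, followed by 092T1 with Cpa3 at 6.78 and an Erbb2 of 8.32, within the range of normal glands.

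The genes varied together among tumors. All 28 pairs of the 8 genes correlated positively over the 188 wide-array tumors (Pearson r 0.27 to 0.92, median 0.50), with Cpa3 and Mcpt4 highest. Tpsb2 followed the mean of the other 7 genes most closely (r = 0.93) and Cma1 at 0.71. On the 26 narrow-array tumors 24 of 28 pairs were positive (-0.12 to 0.77, median 0.30). These correlations share arrays and tumors of the same mice and are given as a description. The genes most like the mean of the 8 on the wide arrays, over 188 tumors, were Nova1 (r = 0.82), Pcolce2 (0.77), Tmem100 (0.77), Ltc4s (0.77), Efemp1 (0.76), Ccl11 (0.76), Abcc4 (0.76) and C6 (0.75). Ltc4s makes leukotriene C4, a lipid mediator of mast cells, and Pcolce2 binds procollagen. On the narrow arrays, over 26 tumors, they were Dpep1 (0.87), Lyve1 (0.83), Folr2 (0.83), Cyyr1 (0.83), Pcolce2 (0.82), Cd302 (0.81), Hip1 (0.81) and Thbs3 (0.81). Among the further mast cell genes, r on the wide arrays ran from -0.31 for Kit to 0.77 for Ltc4s. Alox5 had an r of 0.69, Tph1 of 0.62, Ctsg of 0.09 and Mrgprb8 of -0.01. On the narrow arrays r ran from -0.33 for Mrgprb8 to 0.78 for Ltc4s, with Alox5 at 0.73, Tph1 at 0.29 and Kit at -0.27.

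Tumors of the wide arrays with more collagen had higher levels of Cpa3, Mcpt4, Tpsb2 and Cma1, also with 1 tumor per mouse. On the wide arrays 7 of the 8 genes rose with the mean of 8 collagen genes (slope in limma with background as a term, adjusted p under 0.05), where 11.5% of all probe sets rose. Cpa3 rose by 0.52 for each unit of collagen (95% interval 0.39 to 0.64, adjusted p = 5.57e-12 from limma), Mcpt4 by 0.47 (95% interval 0.36 to 0.59, adjusted p = 4.74e-13 from limma) and Tpsb2 by 0.22 (95% interval 0.16 to 0.28, adjusted p = 1.08e-09 from limma). Smaller slopes were called for Tpsab1 (0.14), Cma1 (0.13), Hdc (0.10) and Fcer1a (0.10), and Ms4a2 had 0.01 (adjusted p = 0.706 from limma). In the 47 tumors with the least collagen Cpa3 had a median of 4.96 and reached 5.74, and in the 47 with the most it had a median of 5.56 and reached 8.39. The groups overlapped. Of the 5 tumors with the highest Cpa3, 4 were among those with the most collagen, and the other, 050T2, had a Cpa3 of 7.41 at a collagen mean of 9.11, above 45.2% of the tumors.

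**Figure D4:**
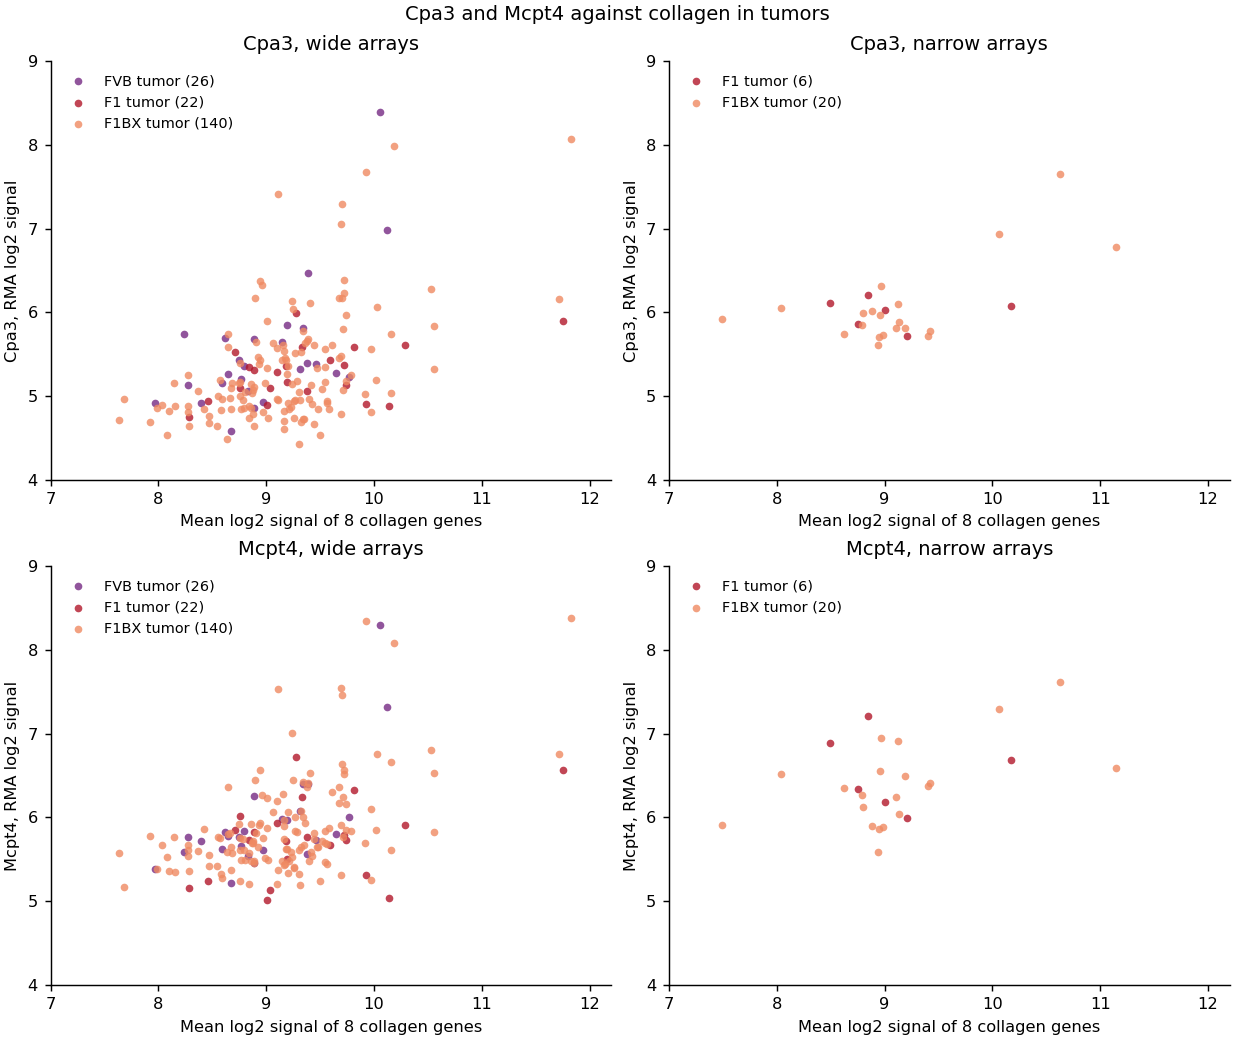
RMA log2 signal of Cpa3 (top) and Mcpt4 (bottom) on the y axis against the mean log2 signal of 8 collagen genes on the x axis, in tumors of the wide arrays (left) and the narrow arrays (right), with 1 point per array colored by background. High values of both genes occur mostly to the right, and many tumors with much collagen have low values.

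With 1 tumor per mouse (22 FVB, 16 F1 and 93 F1BX mice), Mcpt4 and collagen had a Pearson r of 0.44 and a Spearman rho of 0.41, each with a permutation p of 1e-05, the smallest that 100000 permutations give. Cpa3 had an r of 0.41 (permutation p = 2e-05) and a rho of 0.38 (permutation p = 1e-05). Without the 2 tumors farthest from the median collagen level, r was 0.42 for Mcpt4 and 0.38 for Cpa3. Tpsb2 had an r of 0.33 (permutation p = 0.00053) and a rho of 0.31 (permutation p = 0.00025), and Cma1 an r of 0.29 (permutation p = 0.00112) and a rho of 0.23 (permutation p = 0.00854). For Tpsab1 the relation did not hold over mice, with an r of 0.13 (permutation p = 0.133) and a rho of 0.01 (permutation p = 0.929). Hdc had an r of 0.18 (permutation p = 0.0407) and a rho of 0.11 (permutation p = 0.195). Fcer1a had an r of 0.20 (permutation p = 0.0254) and a rho of 0.17 (permutation p = 0.0488). Ms4a2 had an r of -0.01 (permutation p = 0.929) and a rho of -0.09 (permutation p = 0.330). The slope with 1 array per mouse was called for 4 of the 8 genes (Cpa3, Mcpt4, Tpsb2 and Cma1), and not for Tpsab1, Hdc, Fcer1a or Ms4a2. These permutation tests were two-sided, 16 relations were computed over both array sets, and the adjusted p over all probe sets is that of the slope.

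Within backgrounds, r of Cpa3 was 0.30 in FVB, 0.23 in F1 and 0.46 in F1BX mice, and r of Mcpt4 was 0.47, 0.06 and 0.49. In F1 mice r was -0.59 for Tpsab1, -0.27 for Tpsb2 and -0.09 for Cma1. The slopes of Cpa3 over all tumors were 0.90 in FVB, 0.21 in F1 and 0.53 in F1BX tumors, and the difference between backgrounds was not called for any of the 8 genes (adjusted p = 0.999 for each from limma). At an unadjusted p under 0.05 it was met by Cpa3, Mcpt4 and Tpsb2, and the share of all probe sets at that level was not counted.

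**Figure D5:**
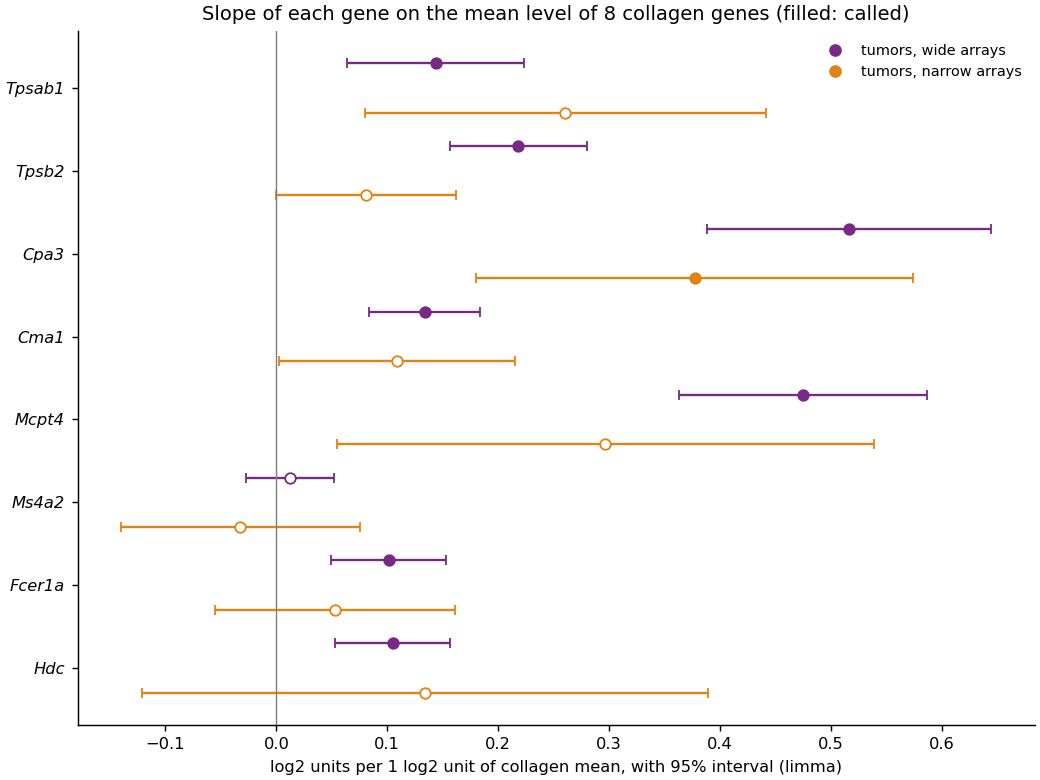
Slope of each mast cell gene (y axis) in log2 units for each log2 unit of the mean of 8 collagen genes, with its 95% interval from limma (x axis), in the tumors of the wide and of the narrow arrays, with filled points where the slope was called. Cpa3 and Mcpt4 have the largest slopes in both sets, and Ms4a2 lies at 0 within its intervals.

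On the narrow arrays 1 of the 8 genes rose with collagen, Cpa3 (0.38, 95% interval 0.18 to 0.57, adjusted p = 0.0155 from limma), where 4.05% of all probe sets rose. Tpsab1 had a slope of 0.26 (adjusted p = 0.0781 from limma) and Mcpt4 of 0.30 (adjusted p = 0.151 from limma). Over 26 mice Cpa3 had an r of 0.62 (permutation p = 0.00255) and a rho of 0.15 (permutation p = 0.470), and without 092T1 and 025T1 r was 0.27. The relation on the narrow arrays thus rests on those tumors.

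Some of the other lists rose with collagen and some did not. Of the further mast cell genes 12 of 18 rose on the wide arrays and 2 fell (Kit and Rab27b), where 11.5% of all probe sets rose and 18.8% fell. The list median was 0.10 against 0.14 for the 8 genes and -0.02 for all probe sets. All 6 macrophage and all 5 endothelial genes rose, as did 5 of 6 adipocyte, 4 of 5 skeletal muscle and 5 of 6 neutrophil genes, against 1 of 5 T cell, 1 of 4 B cell, 1 of 4 basophil and 1 of 4 eosinophil genes. Of 5 luminal epithelial genes 1 rose and 2 fell. With the adipocyte and skeletal muscle means as terms, Cpa3, Mcpt4, Tpsb2, Tpsab1 and Cma1 were still called, and Hdc and Fcer1a were not. Among signals, Il33 (1.18), Ccl2 (0.45), Cxcl12 (0.35) and Tgfb1 rose, and Il3 had a slope of -0.01 (adjusted p = 0.817 from limma). Which of these tissue components the mast cell genes follow was not tested.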

How the data were processed

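Total RNA was hybridized to 222 Affymetrix mouse gene 1.0 ST arrays, 8 with RNA from normal glands and 214 with RNA from tumors, of which 2 are second measurements of a tumor. The deposited values are log2 signals that the authors normalized by RMA, with a software version and annotation build not given in the sources used here. Precision is limited by how many arrays each group has. Groups follow the labels, also for 051T1 and 063T1, whose names have the form of another group. Nothing in the labels says whether glands of a group were collected separately, so p-values measure the spread between these arrays. The mast cell genes and all gene lists were chosen with earlier results of these data known.

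All 35556 probe sets were fitted in R 4.3.3 with limma 3.58.1 (lmFit, eBayes), with Benjamini-Hochberg adjustment over all probe sets. Arrays with an interquartile range under 2.8 (narrow) and over it (wide) were fitted separately, with the mouse of a tumor, read from its name, as a random block (statmod 1.5.0, duplicateCorrelation on every 10th probe set). Tumors and glands were compared at an adjusted p no higher than 0.005 and at least a 2-fold change, cutoffs taken from the study, which applied them with SAM and a further filter on the standard deviation that was not used here, and other comparisons at 0.05. The collagen slope used the mean of Col1a1, Col1a2, Col3a1, Col5a1, Col5a2, Col6a1, Col6a2 and Col6a3 with background as a term. Exact tests used scipy 1.17.1, and the 100000-permutation tests of the collagen correlations used numpy 2.4.6. The fits were tested on simulated data. All 8 genes were named in each comparison. Beyond them, members of the lists were named where a result turned on them, together with the 8 genes most correlated with the mean of the mast cell genes in each array set. Alternatives were other normalizations, a filter on low signal, 1 array per mouse, other collagen measures and leaving out each gland. Fits on glands alone, on 5 transgenic glands, against wild type glands, with adipocyte and muscle terms and without 168T1 were added after seeing the data.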

Additional observations from a re-analysis of the deposited data

Results flagged for a closer look

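FVB MMTV-ErbB2 gland 3 lay far below the other 4 MMTV-ErbB2 glands of both backgrounds in 2 of the mast cell genes, by the gap to its nearest neighbor as a share of the range. Its Cpa3 was 6.81 and the next lowest was 9.63. Its Mcpt4 was 8.22 and the next lowest was 10.86. Among the 6 F1 tumors of the narrow arrays, F1_26T1 had the lowest Tpsab1, at 5.57 against 5.88 for the next. This rule was applied to 16 combinations of a gene and a group and marked 3 of them, and chance marks about 1 in 20 groups.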

How the results depend on the processing

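The number of the 8 genes called lower in tumors than in glands stayed at 6 under the other alternatives, including SAM statistics, all arrays of both sets and leaving out each gland, and was 2 against the F1 wild type glands alone. No gene was called between backgrounds of tumors under any alternative. Between F1 MMTV-ErbB2 and wild type glands the count ranged from 3 to 6 when each gland was left out, 3 being the count without F1 MMTV-ErbB2 gland 1 (Cpa3, Mcpt4 and Hdc lost, with the lone remaining gland assumed to vary like the other groups), and was 0 with the replicate number as a block in the glands alone, 0 in the glands alone without it and 1 in the glands alone with all 5 transgenic glands. Nothing states that the gland numbers pair the animals. Between FVB and F1 MMTV-ErbB2 glands it ranged from 0 to 2, with 2 (Tpsab1 and Cpa3) without FVB gland 1 and 1 (Tpsab1) without FVB gland 2. The share of all probe sets called in that comparison ranged from 0.00281% to 17.5%. On the wide arrays the collagen slope was called for 4 genes after the filter on low signal, which kept 4 (Tpsab1, Tpsb2, Mcpt4 and Hdc), and for 4 with 1 array per mouse. The filter dropped Cpa3 and Cma1, whose means in wide-array tumors were 5.34 and 5.44 against 5.89 for Tpsab1, as well as Ms4a2 and Fcer1a. On the narrow arrays the collagen slope was called for 2 with quantile normalization, 0 with Col1a1 alone, 2 with the mean of Col6a1, Col6a2 and Col6a3, 0 without the 2 tumors of most extreme collagen and 0 with adipocyte and skeletal muscle terms. The cause of these changes was not tested.

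Directions turned in values that were not called. Ms4a2 was -0.13 between tumors and glands over all arrays. Between F1 and FVB tumors Fcer1a was -0.020 after centring, -0.050 with 1 array per mouse and -0.037 with collagen as a covariate, and Hdc was 0.0067 with 1 array per mouse. Between F1BX and FVB tumors Ms4a2 was -0.01 after centring, and with 1 array per mouse Tpsb2 was 0.037, Cma1 0.032, Mcpt4 0.085 and Hdc 0.018. Between F1BX and F1 tumors Tpsab1 was -0.023 and Hdc -0.00063 with quantile normalization, Tpsab1 was -0.023 without 168T1, and on the narrow arrays Fcer1a was -0.0061 with quantile normalization. Between FVB and F1 transgenic glands leaving out each gland gave -0.28 to 0.019 for Cma1, -1.50 to 0.059 for Mcpt4 and -0.21 to 0.094 for Ms4a2, with the sign turned without F1 gland 1 (Cma1 and Ms4a2), FVB gland 2 (Ms4a2) or FVB gland 3 (Cma1 and Mcpt4). The collagen slope of Ms4a2 on the wide arrays was -0.00045 after centring, -0.0031 with 1 array per mouse, -0.0084 with the Col6 mean, -0.012 with adipocyte and muscle terms and -0.0022 without 168T1. On the narrow arrays it was 0.0076 with quantile normalization, and the slope of Tpsab1 was -0.082 without the 2 tumors of most extreme collagen. Without a detection call, differences of dim genes such as Ms4a2 and Fcer1a, and of Cpa3 and Cma1 among wide-array tumors, may be understated.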
